A study of Junonia coenia with 20 samples.

Results

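RNA sequencing was used to compare 2 pupal stages of the hind wing of Junonia coenia, the common buckeye butterfly. They were wings in which the first, yellow ommochrome pigment was forming (early ommochrome) and pupal wings that had no pigment yet (pre-pigment). The comparison rested on 8 libraries, 4 of each stage, chosen by their stage labels from the 16 libraries with values. The series describes 20 samples of 4 stages, the other 2 stages being the last-instar larval wing disc and the wing of late (orange to red) ommochrome deposition. Each stage held 2 libraries of Rosa and 2 of Linea, the colour morphs of the species. The early ommochrome libraries were Rosa replicates 1 and 3 and Linea replicates 1 and 2, and the pre-pigment libraries were replicates 1 and 2 of Rosa and of Linea. All animals came from 1 North Carolina population kept on an artificial diet, either at 21°C with 8 h of light or at 27°C with 16 h of light. Which morph was reared under which regime is not stated in the labels. No gene was mutated and no drug was given. The labels give no hours after pupation, and they do not say whether a replicate is 1 animal or a pool, so a p-value here is set against the spread among libraries and that spread may be technical. Sequencing used more than 1 instrument and read length, and the labels do not tie them to libraries, so a batch of this kind was not tested.

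A butterfly wing is a sheet of epidermis in which single cells grow out into scales, and each scale carries its own colour. Ommochromes are made from the amino acid tryptophan by way of kynurenine, and they give nymphalid wings their yellow, red and brown tones. Pigment appears late in pupal life, after the scales have been shaped and their cuticle laid down. The labels do not say how far the scales of the pre-pigment wings had developed. The deposited table lists transcripts of a de novo assembly under identifiers that it does not pair with gene names or sequences. Known pigment, cuticle and patterning genes could therefore not be looked up, the labelled tissue could not be checked against marker genes, and nothing is said here of what a transcript encodes.

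Values were RPKM, which are reads scaled by transcript length and by library size. They were scaled by a median ratio over the 7126 transcripts that reach 1 RPKM in all 16 libraries. Below, "scaled RPKM" means the RPKM after this step, which does not make the median of all tested transcripts exactly level. The summed RPKM of a library was between 487429 and 773866 in early ommochrome wings and between 499806 and 613090 in pre-pigment wings. Sequencing depth is unknown, because RPKM keeps no read counts and the 8 libraries held 1387 values above 0 and below 0.001 RPKM, which are no whole reads. Of 16251 transcripts, 14868 reached 1 scaled RPKM in at least 2 of the 8 libraries and were tested.

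Before the comparison, 1 library stood apart. Rosa pre-pigment replicate 1 had a median Spearman correlation of 0.612 with the other 7 libraries, while the medians of the other libraries lay between 0.721 and 0.775. On principal component 1, with 30.1% of the variance, it lay at -146, Linea pre-pigment replicate 1 lay at -46.4 and the other 6 libraries lay between 19.8 and 41.5. Principal component 2, with 19.1% of the variance, separated the stages. On it the early ommochrome libraries lay between 8.4 and 78.9 and the pre-pigment libraries between -75.1 and -2.2. Early ommochrome libraries correlated with each other at 0.762 to 0.811, pre-pigment libraries with each other at 0.598 to 0.781, and libraries of different stages at 0.609 to 0.810.

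**Figure D1:**
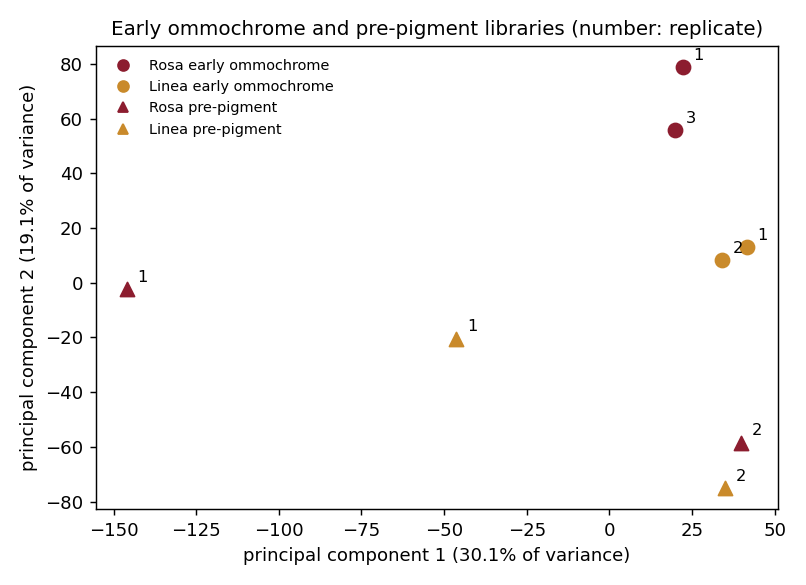
Principal components 1 (horizontal, 30.1% of the variance) and 2 (vertical, 19.1%) of log2(scaled RPKM + 1) over 14868 transcripts. Circles are early ommochrome and triangles pre-pigment libraries, coloured by morph and numbered by replicate; Rosa pre-pigment replicate 1 lies far to the left at -146, and the stages do not overlap on the vertical axis.

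More transcripts reached 1 RPKM at early ommochrome, a difference that did not pass the test once adjusted. In Rosa, 13778 and 12784 transcripts reached 1 RPKM at early ommochrome, against 11339 and 12277 before pigment. In Linea the counts were 13065 and 12916 at early ommochrome and 12674 and 12130 before pigment. Every early ommochrome library was thus above every pre-pigment library, with means of 13136 ± 443 and 12105 ± 560 transcripts (SD, n = 4 each). The exact two-sided permutation test gave p = 0.0286, the smallest that 4 against 4 libraries allow, and an adjusted p of 0.0571 over the 2 library measures tested. On scaled RPKM the difference was 575 transcripts in place of 1031 (exact permutation p = 0.229), and the stages overlapped. Rosa early ommochrome replicate 3, with 12766 transcripts at 1 scaled RPKM, then lay below Rosa pre-pigment replicate 2 (13071) and above Rosa pre-pigment replicate 1 (11713). Without Rosa pre-pigment replicate 1 the difference was 775 transcripts (exact permutation p = 0.0571).

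The 10 most abundant transcripts held less of the total at early ommochrome. Their share of the summed RPKM was 18.4% and 29.4% in Rosa and 24.0% and 30.0% in Linea at early ommochrome. It was 33.0% and 28.7% in Rosa and 33.0% and 32.2% in Linea before pigment. The stages overlapped, since Rosa pre-pigment replicate 2 lay below 2 of the early ommochrome libraries. The means were 25.4% ± 5.44 and 31.7% ± 2.06 (SD, n = 4 each), and the exact two-sided permutation test gave p = 0.0857 (adjusted p = 0.0857). Without Rosa early ommochrome replicate 1, the library with the lowest share, the difference of means shrank to -3.92 percentage points, from -6.28 with all libraries.

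The most abundant transcripts varied widely between libraries of 1 stage, and none of the 3 named for abundance passed the test between the stages. JC_0033741 had the highest mean of all transcripts before pigment. Its level was 1733 and 7161 scaled RPKM in Rosa and 534 and 489 in Linea at early ommochrome, against 114817 and 6036 in Rosa and 87100 and 47567 in Linea before pigment. In 3 of the 4 pre-pigment libraries it was above every early ommochrome library, but Rosa pre-pigment replicate 2 lay below Rosa early ommochrome replicate 3, so the stages overlapped. In Rosa pre-pigment replicate 1 this 1 transcript held 17.9% of the summed RPKM. Its log2 change was -4.94 ± 1.17 (SE, limma adjusted p = 0.177).

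JC_0048950 had the highest mean at early ommochrome and the second highest before pigment. It stood at 36753 and 74256 scaled RPKM in Rosa and 32824 and 32115 in Linea at early ommochrome. Before pigment it stood at 2685 and 61301 in Rosa and 9916 and 98631 in Linea. Both pre-pigment libraries numbered 1 were low and both numbered 2 were high, so the spread before pigment was wider than any difference between the stages (log2 change 1.04 ± 1.18, SE, limma adjusted p = 0.823). JC_0091113 was the other leading transcript of early ommochrome wings, at 5805 and 29837 scaled RPKM in Rosa and 28976 and 24848 in Linea. Before pigment it had 7912 and 1615 in Rosa and 29847 and 3976 in Linea, where Linea replicate 1 was as high as the highest early ommochrome library (log2 change 1.59 ± 0.89, SE, limma adjusted p = 0.615).

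With morph as a term, 14 transcripts were higher and 21 lower at early ommochrome than before pigment (limma on log2(scaled RPKM + 1), Benjamini-Hochberg adjusted p under 0.05). These were 0.0942% and 0.141% of the transcripts tested. In whole wings, fewer cells of a type and less RNA per cell cannot be told apart. The log2 changes of the 14 risers lay between 2.63 and 4.80 with a median of 3.59, and those of the 21 fallers between -7.07 and -2.18 with a median of -4.02, while the median of all tested transcripts was 0.08. The largest falls were thus deeper than the largest rises. A log2 change of at least 3 in either direction, 8-fold on this scale, was reached by 11 of the risers and 16 of the fallers, and by 100 of all tested transcripts. The last transcript inside the threshold had a limma adjusted p of 0.0469 and a log2 change of -2.18, and the first outside it had 0.0521 and -4.64.

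The 2 lists differed in where they started and ended. The fallers had pre-pigment means of 18.0 to 533 scaled RPKM, and 9 of the 21 were at 100 or more. At early ommochrome their means were 0.114 to 41.3, and 6 of the 21 were under 1. The risers had early ommochrome means of 12.0 to 1177 scaled RPKM, against pre-pigment means of 0.233 to 41.1. Only 4 of the 14 risers reached a mean of 100 at early ommochrome. In each early ommochrome library the risers' own medians lay between 54.1 and 69.1 scaled RPKM, against 2.80 to 4.06 in the pre-pigment libraries. The fallers' medians lay between 1.26 and 5.42 in the early ommochrome libraries and between 59.8 and 72.5 in the pre-pigment libraries. Levels without any overlap between the 4 early ommochrome and 4 pre-pigment libraries were seen in 13 of the 14 risers and all 21 fallers. Among all tested transcripts, 3.76% were higher and 3.24% lower at early ommochrome without overlap. The lists were chosen on these same values, so these medians and counts describe them and support nothing.

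The number of calls depended on single libraries and on the model. Without Rosa pre-pigment replicate 1, the library that stood apart, 41 transcripts were called, 25 of them among the 35. Without Linea pre-pigment replicate 2 only 3 were called, and the count was 9 without Linea early ommochrome replicate 1 or Rosa early ommochrome replicate 1, 11 without Rosa pre-pigment replicate 2, 14 without Linea pre-pigment replicate 1, 16 without Linea early ommochrome replicate 2 and 31 without Rosa early ommochrome replicate 3. With a mean per morph and stage in place of the additive terms 14 were called, 7 higher and 7 lower, and with all 16 libraries in the fit 100 were called, 39 higher and 61 lower. With RPKM as deposited, where the median change of all transcripts was 0.39, the split was 21 higher and 16 lower. All 35 transcripts kept their direction in each of the 19 other fits, which also scaled, filtered or weighted the libraries in other ways. They were chosen on these same libraries, so this outcome was nearly fixed in advance and adds no support.

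**Figure D2:**
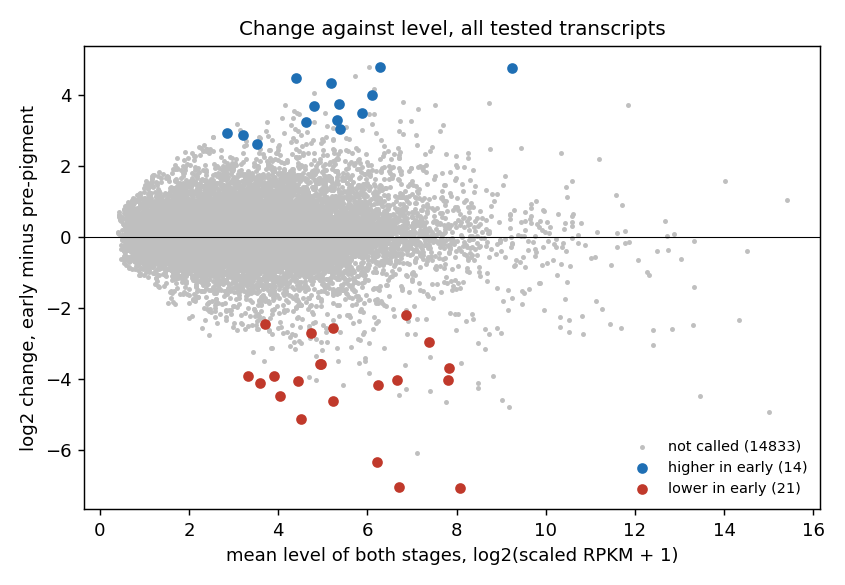
The log2 change between early ommochrome and pre-pigment wings (vertical) against the mean level of both stages on a log2(scaled RPKM + 1) axis (horizontal), 1 point for each of 14868 transcripts. Blue points are the 14 called higher and red points the 21 called lower at early ommochrome; the deepest red points lie near -7 and the highest blue points near 4.8.

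The 2 largest falls took transcripts from high to low levels in both morphs. JC_0096614 was at 0.0395 and 3.17 scaled RPKM in Rosa and 0.0390 and 0.212 in Linea at early ommochrome, against 133 and 193 in Rosa and 279 and 215 in Linea before pigment. Every pre-pigment library was more than 40 times the highest early ommochrome library, Rosa replicate 3. Its log2 change was -7.03 ± 0.53 (SE, limma adjusted p = 0.00819), and it was called in all 19 alternative fits, with a highest adjusted p of 0.0467.

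JC_0091895 was at 0.850 and 12.6 scaled RPKM in Rosa and 2.99 and 0.884 in Linea at early ommochrome, against 354 and 790 in Rosa and 341 and 647 in Linea before pigment. Rosa replicate 3 was again the highest early ommochrome library, and the groups were far apart. The log2 change was -7.07 ± 0.66 (SE, limma adjusted p = 0.00819), and the call was lost only without Linea pre-pigment replicate 2 (limma adjusted p = 0.0533). Before pigment this transcript ranked between place 109 and place 184 of all transcripts in each library, and at early ommochrome between 5300 and 14019.

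Of the risers, JC_0109911 reached the highest level. It had 1347 and 1460 scaled RPKM in Rosa and 547 and 1352 in Linea at early ommochrome, against 33.5 and 48.2 in Rosa and 57.1 and 25.8 in Linea before pigment. Linea early ommochrome replicate 1 was the lowest of its stage and still far above the pre-pigment libraries. The log2 change was 4.77 ± 0.42 (SE, limma adjusted p = 0.00819). Of the single libraries left out, Linea pre-pigment replicate 2 alone ended the call (limma adjusted p = 0.0516).

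JC_0049330 had the largest rise. It was at 132 and 148 scaled RPKM in Rosa and 81.4 and 235 in Linea at early ommochrome, against 0.930 and 2.13 in Rosa and 6.73 and 12.7 in Linea before pigment. The groups did not overlap, and before pigment both Rosa libraries were below both Linea libraries. Its log2 change was 4.80 ± 0.55 (SE, limma adjusted p = 0.024), with 5.84 in Rosa and 3.76 in Linea. This call was less steady: it was lost in 8 of the 19 alternative fits, including those without Rosa pre-pigment replicate 2, Rosa early ommochrome replicate 1 or 3, Linea pre-pigment replicate 1 or 2, or Linea early ommochrome replicate 2, with adjusted p up to 0.116.

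**Figure D3:**
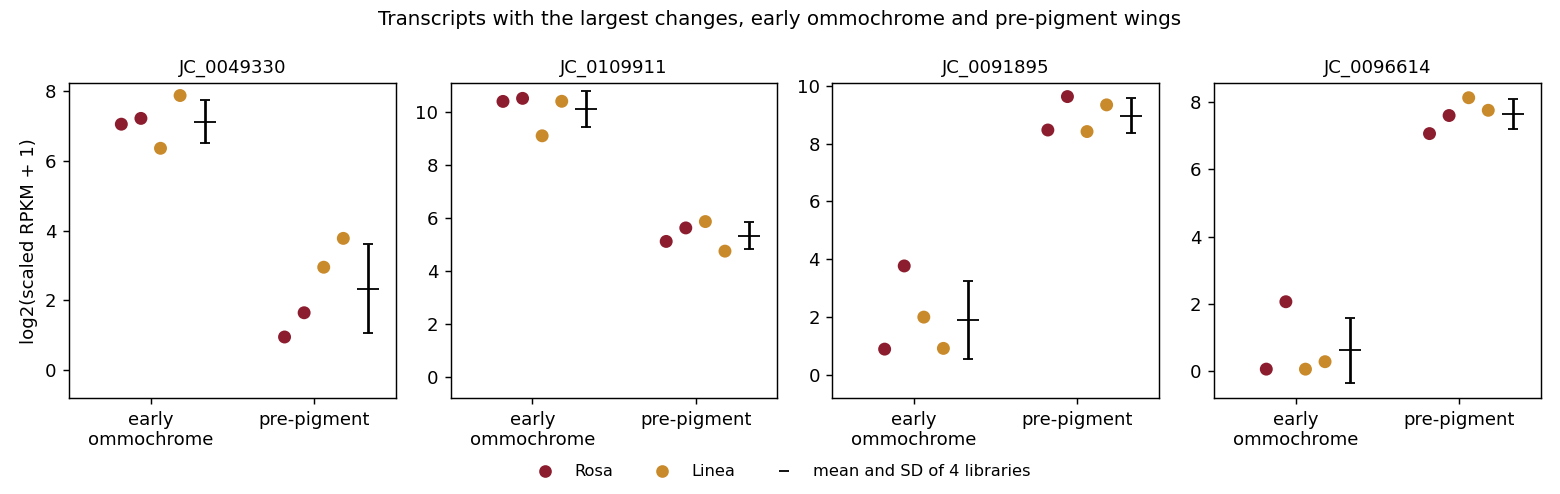
Levels of the 2 called transcripts with the largest rises (left) and the 2 with the largest falls (right) as log2(scaled RPKM + 1) in each library, early ommochrome left of pre-pigment in each panel. Points are single libraries coloured by morph, and the bars are the mean ± SD of the 4 libraries; the stages do not overlap in any panel.

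A few transcripts went between clear presence and less than 1 scaled RPKM. Those with at least 5 scaled RPKM in all 4 libraries of a stage and under 1 in all 4 of the other were 1 transcript present at early ommochrome and 4 present before pigment. They are named because they are few; their values had been seen when they were chosen. All 5 were called, which adds no support, since the rule and the test used the same values. The 4 seen before pigment were JC_0030879, JC_0101274, JC_0097174 and JC_0100356, and their limma adjusted p was between 0.00819 and 0.0266.

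JC_0030879 was listed at 0 and at 0.131 scaled RPKM in Rosa and had 0.208 and 0.117 in Linea at early ommochrome, against 13.5 and 40.8 in Rosa and 55.9 and 64.1 in Linea before pigment (log2 change -5.12 ± 0.46, SE). JC_0101274 had 0.0268 and 0.663 scaled RPKM in Rosa and 0.232 and 0.503 in Linea at early ommochrome, against 20.1 and 48.2 in Rosa and 31.3 and 22.7 in Linea before pigment (log2 change -4.48 ± 0.41, SE). Of the single libraries left out, Linea pre-pigment replicate 2 alone ended both calls (limma adjusted p = 0.0516). The remaining 2 were lower before pigment. JC_0097174 had 10.1 and 31.0 scaled RPKM in Rosa and 14.9 and 31.4 in Linea there, and at most 0.55 in any early ommochrome library. JC_0100356 had 5.41 and 24.2 in Rosa and 16.5 and 26.1 in Linea before pigment, and at most 0.299 at early ommochrome. Their calls were lost in 8 and 9 of the 19 alternative fits, with adjusted p up to 0.113 for JC_0097174 and 0.128 for JC_0100356. The libraries whose removal ended the call were Linea pre-pigment replicates 1 and 2, Linea early ommochrome replicates 1 and 2, Rosa pre-pigment replicate 2 and Rosa early ommochrome replicate 1 for both, and Rosa early ommochrome replicate 3 for JC_0100356.

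The transcript present at early ommochrome was JC_0012703. It had 26.8 and 5.06 scaled RPKM in Rosa and 95.5 and 33.7 in Linea at early ommochrome. Before pigment it was listed at 0 and at 0.151 in Rosa and had 0.217 and 0.564 in Linea. The early ommochrome libraries differed widely among themselves, from 5.06 to 95.5, and none came near the pre-pigment libraries. Its log2 change was 4.49 ± 0.64 (SE, limma adjusted p = 0.0463). The call was lost without any single library other than Rosa early ommochrome replicate 3 and in 12 of the 19 alternative fits (adjusted p up to 0.321), so it stands at the edge of the threshold. In larval discs it ranged from 2.58 to 4088 scaled RPKM, the highest being Rosa replicate 2. At late ommochrome it was listed at 0 in both Linea libraries and had 0.312 and 1.77 scaled RPKM in Rosa.

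The larval and late ommochrome libraries, which had no part in the fit, show where the called transcripts stood at the other stages. In single libraries, the median of the 14 risers lay between 0.651 and 3.47 scaled RPKM in larval discs, 2.80 and 4.06 before pigment, 54.1 and 69.1 at early ommochrome and 50.2 and 61.1 at late ommochrome. The median of all tested transcripts was between 6.77 and 7.91 in the late ommochrome libraries. The late ommochrome mean was at least 5 scaled RPKM in 13 of the 14, the other being JC_0012703, and in 9446 of all 14868 tested transcripts. JC_0109911 stood at 1878 and 2381 scaled RPKM in Rosa and 857 and 1603 in Linea by then, and JC_0049330 at 6.42 and 28.1 in Rosa and 94.6 and 57.1 in Linea. The Rosa libraries of JC_0049330 were both below the Linea ones at that stage.

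The 21 fallers had a median of 1.19 scaled RPKM in larval discs, 62.6 before pigment, 3.74 at early ommochrome and 1.45 at late ommochrome. In single libraries their median was between 0.377 and 1.60 in larval discs and between 0.322 and 1.91 at late ommochrome. A larval mean under 1 scaled RPKM was found in 10 of the 21, and a late ommochrome mean under 1 in 9. A mean of at least 5 was found in 6 of the 21 in larval discs and in 5 at late ommochrome, where JC_0091793 was the highest at 41.6 scaled RPKM, so not all of them were low at those stages. Among all tested transcripts a mean under 1 was found in 1655 of 14868 in larval discs and in 1146 at late ommochrome. A mean of at least 5 was found in 8929 of them in larval discs and in 9446 at late ommochrome. Risers and fallers were chosen on their early ommochrome and pre-pigment values, and all tested transcripts were not. Some fallers, such as JC_0030879, passed the low-value filter only through pre-pigment libraries. The counts for both lists are therefore descriptions and no test against all transcripts. JC_0096614 had 2.22 and 0.837 scaled RPKM in Rosa and 4.04 and 1.42 in Linea larval discs. At late ommochrome it had 0.322 and 4.09 in Rosa and 0.733 and 1.04 in Linea. JC_0091895 ranged from 3.04 to 9.14 scaled RPKM over the larval libraries and from 0.382 to 6.92 over the late ommochrome libraries.

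**Figure D4:**
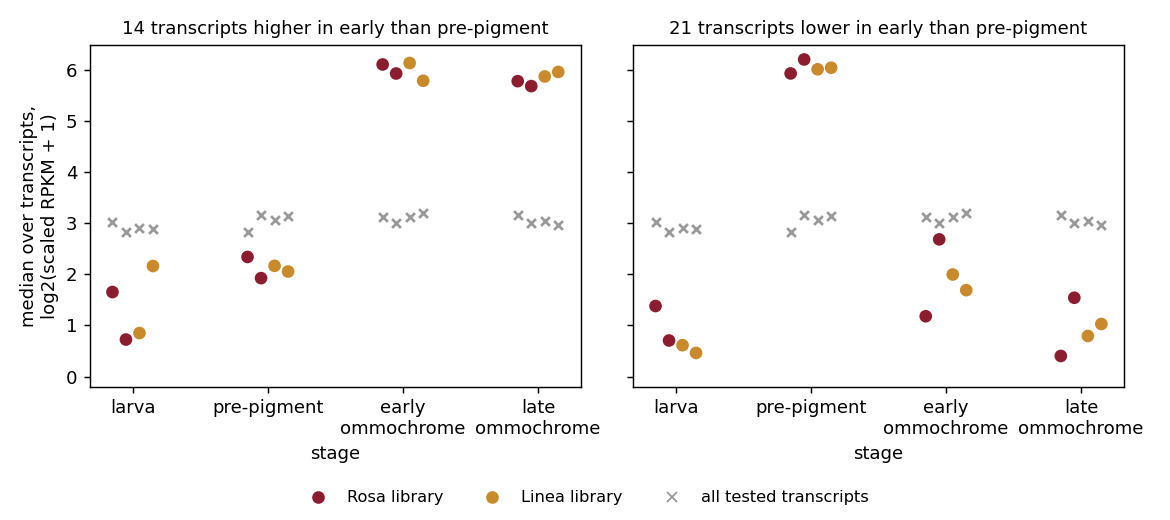
Median level of the 14 transcripts higher (left) and the 21 lower (right) at early ommochrome than before pigment, as log2(scaled RPKM + 1), in each of 16 libraries from larval disc to late ommochrome wing. Coloured points are libraries by morph, and grey crosses are the median of all tested transcripts in the same library; the risers stay up at late ommochrome (50.2 to 61.1 scaled RPKM) and the fallers stay down (0.322 to 1.91).

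The step was also read within each morph, with 2 early ommochrome and 2 pre-pigment libraries. No transcript passed the threshold in Rosa or in Linea alone (limma, lowest adjusted p 0.1 in Rosa and 0.127 in Linea). At an unadjusted p under 0.05 there were 1288 transcripts in Rosa and 962 in Linea, and 5% of those tested would be 743.4. Pre-pigment replicates lay further apart than early ommochrome ones. Of all tested transcripts, 28.6% in Rosa and 23.8% in Linea differed at least 2-fold between the early ommochrome replicates, against 44.8% in Rosa and 35.2% in Linea between the pre-pigment replicates. In Rosa the count depended on 1 library: without Rosa pre-pigment replicate 2, which leaves replicate 1 as the lone pre-pigment library with the spread of the other groups assumed for it, 165 were higher and 15 lower at early ommochrome.

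Candidates in Rosa were taken from transcripts averaging at least 5 scaled RPKM where higher, with no overlap of the libraries. Among these, the rise and the fall with the lowest p were JC_0049218 and JC_0100234. JC_0049218 had 118 and 68.3 scaled RPKM in Rosa early ommochrome wings, against 0.351 and 1.71 in Rosa pre-pigment wings, which gave 5.57 ± 0.58 on the log2 scale (SE, limma adjusted p = 0.1). In Linea it had 15.0 and 10.4 at early ommochrome and 1.20 and 1.45 before pigment, so the levels were apart there as well. JC_0100234 had 2.74 and 1.93 scaled RPKM in Rosa early ommochrome wings, against 129 and 75.4 in Rosa pre-pigment wings, which gave -4.91 ± 0.49 on the log2 scale (SE, limma adjusted p = 0.1). In Linea it had 212 and 238 scaled RPKM at early ommochrome and 99.1 and 166 before pigment, so both early ommochrome libraries were above both pre-pigment ones there.

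In Linea the lowest p among the rises that met the same level and overlap rules was that of JC_0049707. It is also among the 14 risers of both morphs. It had 80.3 and 103 scaled RPKM in Linea early ommochrome wings, against 4.39 and 1.64 in Linea pre-pigment wings (log2 change 4.60 ± 0.51, SE, limma adjusted p = 0.147 in Linea alone). In Rosa it had 43.4 and 47.2 at early ommochrome and 1.58 and 1.74 before pigment. The fall with the lowest p in Linea was JC_0096614, described above, at -7.78 ± 0.70 on the log2 scale (SE, limma adjusted p = 0.127 in Linea alone).

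The changes of the morphs share no library, so one can be read against the other. In Linea, 81 transcripts (0.545% of those tested) were higher and 107 (0.72%) lower at early ommochrome by a log2 change of at least 3 with no overlap of 2 and 2 libraries. Of the 81, 61 (75.3%) had a positive change in Rosa, as had 54.2% of all tested transcripts, and their median change in Rosa was 1.74. Of the 107, 85 (79.4%) had a negative change in Rosa, as had 45.8% of all tested, with a median of -2.01. In Rosa, 166 transcripts (1.12%) were higher and 132 (0.888%) lower by the same rule. In Linea, 107 of the 166 (64.5%) had a positive change, against 54.3% of all tested, and 86 of the 132 (65.2%) had a negative one, against 45.7%. Their median changes in Linea were 0.63 and -0.43, nearer to 0 than those of the Linea lists in Rosa. The rule was met in both morphs by 19 transcripts that were higher and 30 that were lower. These 19 were 23.5% of the Linea list and 11.4% of the Rosa list, and the 30 were 28.0% of the Linea list and 22.7% of the Rosa list.

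The library that stood apart bears on part of this. Without Rosa pre-pigment replicate 1, 54 of the 81 (66.7%) were positive in Rosa, against 48.7% of all tested, and 81 of the 107 (75.7%) were negative, against 51.2%. Across 14868 transcripts the changes in Rosa and in Linea were correlated at 0.25 (Pearson) and 0.21 (Spearman), or at 0.13 and 0.08 without that library. The transcripts of a library share its depth and scaling and are no replicates, so these are descriptions. Linea pre-pigment replicate 1 and Rosa pre-pigment replicate 1 deviated from their group means together, with a correlation of 0.38 over transcripts, and the part of this in the agreement between the morphs was not tested.

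**Figure D5:**
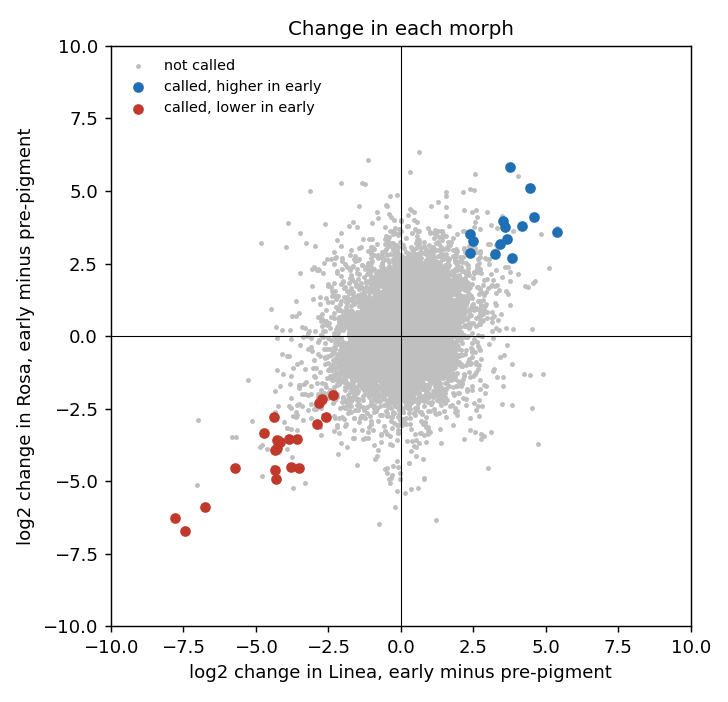
The log2 change between early ommochrome and pre-pigment wings in Rosa (vertical) against that in Linea (horizontal), 1 point per transcript on the log2(scaled RPKM + 1) scale. Grey points were not called with both morphs together, and the 14 blue and 21 red points were; they lie in the upper right and lower left corners because the test over both morphs favours changes of the same sign, and the grey cloud is nearly round, with a Pearson correlation of 0.25 over all points.

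Whether the step differed between the morphs was tested as the change in Rosa minus that in Linea. No transcript passed (limma, lowest adjusted p 0.0833), and 677 had an unadjusted p under 0.05, fewer than the 743.4 that are 5% of those tested. The fall and the rise of lowest p are given as candidates, among transcripts averaging at least 5 scaled RPKM in the highest group. Their stages also did not overlap within either morph. JC_0092577 was at 0.480 and 0.00153 scaled RPKM in Rosa and 75.6 and 55.2 in Linea at early ommochrome, against 34.7 and 22.0 in Rosa and 6.13 and 8.29 in Linea before pigment. It was thus lower at early ommochrome in both Rosa libraries and higher in both Linea libraries, with a difference of log2 changes of -7.57 ± 0.73 (SE, limma adjusted p = 0.0833). JC_0111226 ran the other way, at 25.2 and 11.0 scaled RPKM in Rosa and 0.151 and 0.00341 in Linea at early ommochrome. Before pigment it was at 0.431 and listed at 0 in Rosa and had 10.3 and 21.0 in Linea. Its difference was 7.77 ± 0.88 (SE, limma adjusted p = 0.124). Neither passed the threshold, and with 2 libraries per morph and stage this does not show that the morphs changed alike.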

How the data were processed

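Per the labels' protocols, polyadenylated RNA of hind wings was turned into cDNA with the Ovation kit and read in pairs of 75 or 100 bases. The deposited values are RPKM made by the authors, 1 table of 16251 transcripts and 16 libraries. The submitters' processing notes name Bowtie 0.12.7. How transcripts were assembled, how RPKM was estimated and what was filtered is not stated by the labels. The 4 labelled samples without a column were not analysed here, and no pair of columns was identical.

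Each column was divided by its median ratio to the row geometric mean over 7126 transcripts, those that reach 1 RPKM in each of the 16 columns, factors of 0.578 to 1.42 in the 8 libraries. Transcripts at 1 scaled RPKM in at least 2 of the 8 were tested with limma 3.58.1 (under R 4.3.3), applied to log2(scaled RPKM + 1), which understates changes of low transcripts, with stage and morph terms (5 residual degrees of freedom), an intensity trend and Benjamini-Hochberg adjustment at 0.05. Values within a morph, and the difference between morphs, came from a fit with a mean per morph and stage (4 residual degrees of freedom). The fit was tested on simulated data with noise drawn independently for each value. Effects shared within a library were not part of that simulation. Library measures were tested by exact permutation.

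At most 2 rises and 2 falls per comparison were named: the largest called changes that averaged 5 scaled RPKM or more where higher, the libraries not overlapping (for the morph difference, none within either morph). Where none was called, the rise and the fall of lowest p among transcripts meeting the same level and overlap rules were named. The 2 most abundant transcripts of each stage were added. The comparison, rules and lists were chosen with earlier results of these data known.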

Additional observations from a re-analysis of the deposited data

Results flagged for a closer look

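In 4 of the 38 groups of 4 libraries examined for the transcripts and library measures named above, 1 library lay far from the other 3 by Dixon's 95% limit on the gap to the nearest over the range. Chance flags about 1 in 20 groups when the 4 values are normal draws from 1 population. These groups mixed 2 morphs and their levels were not log-transformed, so the 4 flags cannot be read against that rate. In early ommochrome wings JC_0109911 was low in Linea replicate 1, at 547 scaled RPKM, with the other 3 libraries between 1347 and 1460. JC_0096614 was high in Rosa early ommochrome replicate 3, at 3.17 scaled RPKM, with the others at 0.212 or less. JC_0048950 was high in the same library, at 74256 scaled RPKM, with the others between 32115 and 36753. In pre-pigment wings JC_0049707 was high in Linea replicate 1, at 4.39 scaled RPKM, with the others between 1.58 and 1.74.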

How the results depend on the processing

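The count of 35 called transcripts was within 1.5 times with unscaled RPKM, with quantile normalization, with 0.1 as pseudocount and without a low-value filter (25 to 50). It was 57 when only transcripts averaging 5 scaled RPKM or more were tested, 100 with all 16 libraries in the fit (34 of the 35 among them), 55 with array weights, 14 with a mean per morph and stage and 67 with no morph term. Leaving out single libraries gave 3 to 41, and leaving out both pre-pigment libraries numbered 1, chosen after seeing the data, gave 53 (18 of the 35). With the replicate number as a block (replicate block) 3 were called, 0 higher and 3 lower, and JC_0109911, JC_0030879 and JC_0101274 lost their calls (limma adjusted p = 0.067); this fit matches Rosa early ommochrome replicate 3 exactly and so drops it. Same-numbered libraries of a morph deviated together with correlations of 0.06 in Linea and 0.03 in Rosa, so the numbers were not taken as pairs within a morph. Across the morphs, the libraries numbered 1 deviated together with a correlation of 0.38 before pigment and 0.04 at early ommochrome. An effect shared by the pre-pigment libraries numbered 1 was not tested, so the 3 calls of the block stand beside the 35. The all-library fit called 38 in Rosa, 16 in Linea and 3 for the difference between morphs, where the reported fits called 0. RPKM as deposited called 1 in Rosa. Single libraries left out gave 0 to 180 in Rosa and 0 to 1 in Linea. The difference in transcripts at 1 RPKM was 1252 at 5 RPKM (exact permutation p = 0.0857) and 575 on scaled RPKM (exact permutation p = 0.229), and 775 to 1220 without single libraries. The cause of these shifts was not tested. Some of these fits also held fewer libraries or transcripts. The unknown depth and 2 libraries per morph and stage limit all calls.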

Other observations

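Called transcripts shared the leading digits of their identifiers. Of the 35, 22 lay in 5 of the 121 runs of identifiers that share their first 4 digits. These 5 are the runs with 2 or more called transcripts, so they were chosen for holding calls, and the runs differ in size. The run JC_0049 held 5 of the 14 risers (35.7%) and 3.55% of the transcripts tested, and JC_0110 held 4 risers, 1 faller and 4.16% of those tested. The run JC_0024 held 6 of the 21 fallers (28.6%) and 2.69% of those tested, JC_0091 held 4 fallers and 1.47%, and JC_0096 held 2 fallers and 0.249%. Over all their transcripts, JC_0049 and JC_0110 had median log2 changes of 0.30 each, and 349 of 528 and 416 of 618 had a positive change. JC_0024 had a median of 0.00 with 200 of 400, JC_0091 one of -0.08 with 97 of 218, and JC_0096 one of -0.06 with 18 of 37. Of all tested transcripts, 8169 of 14868 had a positive change, with a median of 0.08. How the identifiers were assigned is not stated in the sources used here, this was seen after the calls were made, and whether neighbouring identifiers stand for related sequences was not tested.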
